A study of Mus musculus with 10 samples.

Results

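Integrins are adhesion receptors, and 10 of their subunit genes were followed here in a mouse melanoma cell line and in its ovalbumin-expressing derivative, each with and without interferon gamma (IFN-γ). The members were taken by symbol from the deposited table: the alpha subunit genes Itga1, Itga2, Itga3, Itga4, Itga5, Itga6 and Itgav and the beta subunit genes Itgb1, Itgb3 and Itgb5. Each symbol matched 1 entry, and these are 10 of 77175 entries. All 10 were among the 15526 genes with enough counts to be tested. B16-F10 is a mouse melanoma line, called WT here. B16-F10-OVA is the same line carrying the construct pLV[Exp]-Neo-EF1A>{ovalbumin}, a lentiviral vector in which the EF1A promoter drives ovalbumin, a model antigen, and it is called OVA here. The groups were OVA cells given IFN-γ at 50 ng/ml for 24 h (3 libraries), untreated OVA cells (2 libraries), WT cells given the same IFN-γ treatment (3 libraries) and untreated WT cells (2 libraries). The question of the series is if the responses of the lines to IFN-γ differ. The labels name no line with an empty vector and do not say whether OVA is a clone, so ovalbumin, the vector and the derivation of the line cannot be told apart. Nor do they describe the replicates as separate cultures, and a p-value here covers only the spread among these libraries, part or all of which could be technical.

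An integrin is a pair of an alpha and a beta subunit that spans the cell membrane, binds extracellular matrix or a protein on another cell outside, and is linked to actin by talin and kindlin inside. The beta 1 subunit pairs with each of the alpha subunits followed here, while alpha V pairs with beta 1, beta 3 and beta 5 among others. The alpha 1 and alpha 2 pairs with beta 1 are collagen receptors, those of alpha 3 and alpha 6 are laminin receptors, that of alpha 5 is the classical fibronectin receptor, and that of alpha 4 binds fibronectin and VCAM-1 and is best known from leukocytes. Alpha V with beta 3 or beta 5 binds vitronectin and other proteins through the arginine-glycine-aspartate motif, and beta 3 is known in human melanoma for its link to invasive growth.

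The files give raw read counts per gene from bulk sequencing of poly-A selected RNA. The libraries held 17728722 to 19642533 counts, and the 10 subunit genes together took 0.103% to 0.154% of a library. Levels are CPM, the counts relative to the library size, scaled with TMM factors. The samples are taken as cell lines, as most labels name them, although the protocol for RNA extraction mentions tissue. Defining melanocyte genes were abundant in every library: the summed CPM of Mlana, Pmel, Tyr, Tyrp1, Dct, Mitf and Sox10 was 23095.5 to 24499.7. Marker sums of other cells were low in every library, with 0.112 to 0.603 CPM for 8 T cell genes, 2.16 to 5.04 for 8 macrophage genes, 0.931 to 1.69 for 5 platelet genes without Itgb3, 0.224 to 1.12 for 5 endothelial genes, 4.18 to 7.67 for 6 fibroblast genes and 0.548 to 1.57 for 5 epithelial genes. Of these markers, 2 T cell, 2 macrophage, 2 platelet, 1 endothelial and 3 epithelial genes had no counts in any library. The macrophage sum was 3.36 to 3.57 CPM in treated and 2.16 to 2.96 CPM in untreated OVA cells, and 3.46 to 5.04 CPM in treated and 2.43 to 3.25 CPM in untreated WT cells. The fibroblast sum ran the other way, with 4.18 to 5.96 CPM in treated and 6.44 to 6.79 CPM in untreated OVA cells, and 4.71 to 5.24 CPM in treated and 6.33 to 7.67 CPM in untreated WT cells. The part of these low sums in the results was not tested.

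The stretches before the annotated gene starts are shown for the subunits whose RNA changed most with IFN-γ in OVA cells. They are the 250 bases before the start in RefSeq on GRCm38.p6, read 5′ to 3′ on the gene's strand. Itga1 and Itga2 are shown together because they are neighbouring protein-coding genes in that annotation and moved in opposite directions. Itga3 is given at the first of its 2 listed starts. Capitals mark a match to the interferon-stimulated response element, searched on both strands as GAAA, any 2 bases and GAAA.
Itga4 (chr2:79255176-79255425, + strand): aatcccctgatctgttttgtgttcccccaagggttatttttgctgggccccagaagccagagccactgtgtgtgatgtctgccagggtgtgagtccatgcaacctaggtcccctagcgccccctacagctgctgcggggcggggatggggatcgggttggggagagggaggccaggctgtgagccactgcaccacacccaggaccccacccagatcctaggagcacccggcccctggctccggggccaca
Itga1 (chr13:115101965-115102214, − strand): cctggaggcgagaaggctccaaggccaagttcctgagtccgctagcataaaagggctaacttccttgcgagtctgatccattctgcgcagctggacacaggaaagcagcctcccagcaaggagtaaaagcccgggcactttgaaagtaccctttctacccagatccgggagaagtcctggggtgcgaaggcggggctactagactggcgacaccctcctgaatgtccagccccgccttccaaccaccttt
Itga2 (chr13:114932101-114932350, − strand): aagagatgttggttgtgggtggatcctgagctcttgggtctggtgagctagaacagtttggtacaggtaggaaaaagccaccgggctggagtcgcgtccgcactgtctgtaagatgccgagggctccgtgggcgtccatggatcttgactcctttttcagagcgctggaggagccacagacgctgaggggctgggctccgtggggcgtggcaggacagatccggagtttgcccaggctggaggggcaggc
Itga3 (chr11:95076715-95076964, − strand): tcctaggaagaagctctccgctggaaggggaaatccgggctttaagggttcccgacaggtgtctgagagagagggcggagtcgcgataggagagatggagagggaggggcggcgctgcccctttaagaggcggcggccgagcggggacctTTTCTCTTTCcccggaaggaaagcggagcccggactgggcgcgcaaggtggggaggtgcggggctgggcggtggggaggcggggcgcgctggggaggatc
These windows held 64.0%, 57.6%, 60.8% and 67.6% G or C for Itga4, Itga1, Itga2 and Itga3, where the median over 32851 listed windows was 52.4%. In the Itga3 window, TTTCTCTTTC, the reverse strand of the searched letters, lies at bases −100 to −91 from the start. This motif occurs in 2.98% of all listed windows, and the gamma-activated sequence TTCNNNGAA, also searched on both strands, occurs in 7.02%. The table listed 9 windows for 8 of the subunit genes, Itga6 and Itgb3 not among them. None of these 9 windows held TTCNNNGAA, and the Itga3 window shown was the only one of them with the response element. A match or its lack describes these letters in this window and says nothing of which factors act on the gene.

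With IFN-γ, most integrin subunit RNAs fell in both lines. In OVA cells 7 of the 10 genes fell and 2 rose at an adjusted p under 0.05 (edgeR, Benjamini-Hochberg adjustment over all genes tested), where 22.9% of all genes tested fell and 25.9% rose, 48.8% together. In WT cells 6 fell and 1 rose, where 19.7% of all genes tested fell and 24.5% rose, 44.2% together. Treated and untreated libraries did not overlap for 9 of the 10 genes in OVA cells, all but Itga5, and for 9 in WT cells, all but Itgav. The share of all genes tested without overlap was 65.6% in OVA and 62% in WT cells. The median log2 fold change of the 10 genes was −0.24 in OVA and −0.28 in WT cells, and that of all genes tested was 0.0018 in OVA and 0.011 in WT cells. Itga4, Itga1, Itga6, Itgb5, Itgb1 and Itgb3 fell in both lines, and Itga2 rose in both. Each comparison has its own untreated libraries, so the lines share no control sample. In these bulk samples, fewer cells with a transcript and less of it per cell cannot be told apart.

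**Figure D1:**
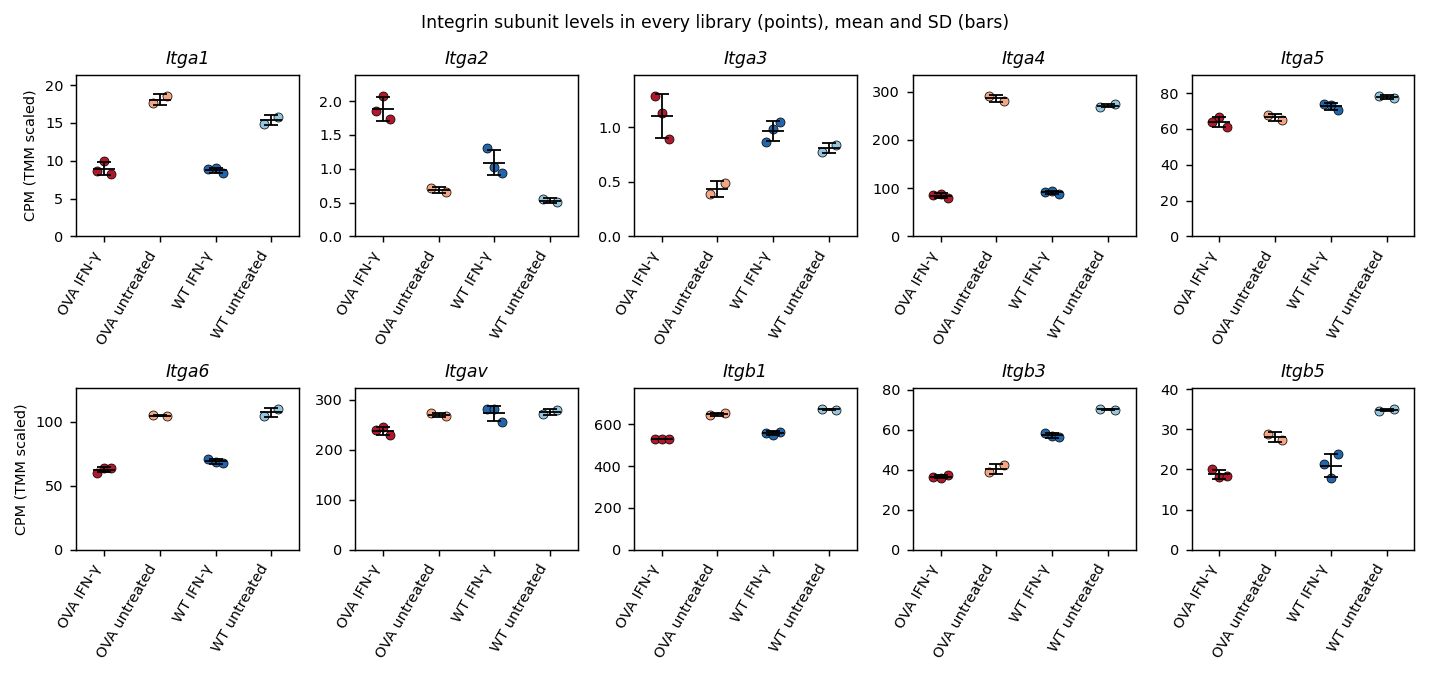
Level of each integrin subunit gene in CPM with TMM factors (vertical axis, from 0, scaled per gene) in each library (points) of treated OVA, untreated OVA, treated WT and untreated WT cells, with the group mean and SD (bars, n = 3, 2, 3 and 2). Itga4 sat at 79.3 to 93.5 CPM in the 6 treated libraries and at 269 to 292 CPM in the 4 untreated ones, while Itgb3 was lower in every OVA library than in every WT library.

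Itga4, the alpha subunit of the fibronectin and VCAM-1 receptor, showed the deepest fall of the 10 genes. It had 86.6, 87.7 and 79.3 CPM in treated and 292 and 281 CPM in untreated OVA cells. Its WT values were 92.6, 93.5 and 87.4 CPM with IFN-γ and 269 and 273 CPM without. All 6 treated libraries were thus far below all 4 untreated ones. The log2 fold change was −1.76 (SE 0.041, adjusted p = 3.94e-16) in OVA and −1.57 (SE 0.041, adjusted p = 1.96e-15) in WT cells, which left 0.295 and 0.336 of the untreated level. Only 0.676% of all genes tested had a lower log2 fold change in OVA cells, and 0.734% in WT cells. In GENCODE M21, 8.04% of the Itga4 exon length is shared with Cerkl on the opposite strand. Over all libraries, 29980 counts were given to Itga4 and 623 to Cerkl. The labels do not say that the libraries kept strand, and the part of opposite-strand reads in either count was not tested.

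The collagen and laminin receptor subunits Itga1 and Itga6 also fell. Itga1 had 8.62, 9.90 and 8.31 CPM in treated and 17.6 and 18.6 CPM in untreated OVA cells, a log2 fold change of −1.02 (SE 0.089, adjusted p = 5.24e-08). WT cells had 8.88, 9.01 and 8.32 CPM with IFN-γ and 14.9 and 15.8 CPM without (−0.81, SE 0.091, adjusted p = 1.34e-06). Treated libraries of the lines overlapped each other and were below all untreated ones. In GENCODE M21, 3.68% of the Itga1 exon length is shared with Gm49395 on the same strand. Over all libraries, 2194 counts were given to Itga1 and 17 to Gm49395, and the part of shared reads was not tested. Itga6, whose product joins beta 1 or beta 4, had 60.2, 63.7 and 63.8 CPM in treated and 105 and 104 CPM in untreated OVA cells (−0.74, SE 0.041, adjusted p = 1.33e-10). The WT libraries had 70.8, 68.7 and 67.4 CPM with IFN-γ and 105 and 110 CPM without (−0.64, SE 0.041, adjusted p = 9.31e-10). Here the treated OVA libraries lay below the treated WT libraries, and the untreated ones overlapped. The falls of Itga4, Itga1 and Itga6 stayed past the threshold in both lines under all 18 alternatives tried.

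Itga2, the alpha subunit of another collagen receptor and the direct neighbour of Itga1, rose at a very low level. It had 33, 37 and 31 counts in treated and 13 and 12 counts in untreated OVA libraries, or 1.85, 2.08 and 1.73 CPM and 0.712 and 0.649 CPM. WT libraries held 24, 20 and 18 counts with IFN-γ and 10 and 9 without, or 1.30, 1.03 and 0.942 CPM and 0.552 and 0.504 CPM. Treated and untreated libraries did not overlap in either line. The log2 fold change was 1.46 (SE 0.30, adjusted p = 6.73e-04) in OVA and 1.03 (SE 0.34, adjusted p = 0.0195) in WT cells. The filter on low counts asks for about 0.554 CPM in at least 2 libraries, and in untreated WT cells only 1 of 2 libraries reached it, without TMM factors. In WT cells it was no longer called with DESeq2 (adjusted p = 0.0986), with no filter (0.0619), or when replicate 1 (0.0710) or 2 (0.104) of untreated WT or replicate 1 of treated WT (0.0691) was left out.

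Itga3, the alpha subunit of a laminin receptor, was also close to the limit of detection. It had 23, 20 and 16 counts in treated and 7 and 9 counts in untreated OVA libraries, or 1.29, 1.12 and 0.892 CPM and 0.383 and 0.487 CPM, and no untreated OVA library reached the filter level. WT libraries had 16, 19 and 20 counts with IFN-γ and 14 and 15 without, or 0.866, 0.978 and 1.05 CPM and 0.773 and 0.840 CPM. Treated libraries were above untreated ones in both lines. It rose in OVA cells (1.33, SE 0.37, adjusted p = 0.00720), a call lost without OVA untreated replicate 1 (adjusted p = 0.0718). In WT cells the log2 fold change was 0.26 with a 95% interval of −0.46 to 0.97 (adjusted p = 0.572). At these counts, a change of that size was not detectable.

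Itgav and Itga5, the alpha subunits of the receptors that bind vitronectin and fibronectin through arginine-glycine-aspartate, moved little. Itgav had 239, 245 and 229 CPM in treated and 272 and 267 CPM in untreated OVA cells, a small fall without overlap (−0.18, SE 0.041, adjusted p = 0.00152). WT cells had 281, 281 and 256 CPM with IFN-γ and 271 and 279 CPM without, and these overlapped (−0.012, 95% interval −0.099 to 0.075, adjusted p = 0.834). Its exons overlap those of the opposite-strand transcript Gm13684 over 5.90% of their length in GENCODE M21, and over all libraries 48044 counts were given to Itgav and 50 to Gm13684, with the same limit on strand. Itga5 had 63.6, 66.8 and 61.1 CPM in treated and 67.7 and 65.1 CPM in untreated OVA cells, which overlapped (−0.057, 95% interval −0.15 to 0.040, adjusted p = 0.330). In WT cells it had 73.7, 73.4 and 70.5 CPM with IFN-γ and 78.6 and 77.0 CPM without. These groups did not overlap, but the change was not called (−0.10, SE 0.044, adjusted p = 0.0763). It was called with the stricter filter (adjusted p = 0.0275) and when replicate 2 (0.0435) or 3 (0.0378) of treated OVA was left out.

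Itgb1, the common partner of most alpha subunits, fell by about the same amount in both lines. It had 531, 533 and 531 CPM in treated and 644 and 655 CPM in untreated OVA cells (−0.29, SE 0.026, adjusted p = 8.89e-08). WT cells had 559, 547 and 566 CPM with IFN-γ and 675 and 670 CPM without (−0.27, SE 0.026, adjusted p = 2.29e-07). All treated libraries were below all untreated ones, and the level dropped by 18.2% in OVA and 17.1% in WT cells. Of all genes tested, 23.5% had a lower log2 fold change in OVA and 22.6% in WT cells.

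Itgb5 and Itgb3, whose products also pair with alpha V, fell with IFN-γ in both lines. Itgb5 had 19.98, 17.996 and 18.3 CPM in treated and 28.9 and 27.3 CPM in untreated OVA cells (−0.58, SE 0.090, adjusted p = 4.32e-05). WT libraries had 21.4, 17.8 and 23.7 CPM with IFN-γ, the widest spread of any group of this gene, and 34.7 and 35.1 CPM without (−0.73, SE 0.085, adjusted p = 1.87e-06). Treated libraries of each line were below its untreated ones. Itgb3 had 36.4, 36.0 and 37.2 CPM in treated and 38.7 and 42.3 CPM in untreated OVA cells (−0.15, SE 0.051, adjusted p = 0.0251). In WT cells it had 58.5, 56.8 and 56.3 CPM with IFN-γ and 70.4 and 70.1 CPM without (−0.30, SE 0.044, adjusted p = 3.49e-05). The OVA call of Itgb3 was lost without OVA untreated replicate 2 (−0.079, adjusted p = 0.349) or OVA IFN-γ replicate 2 (0.0536), with DESeq2 (0.0852) and with no filter (0.0978).

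Whether the lines differ in these responses was tested by the difference of the log2 fold changes, OVA minus WT. None of the 10 genes was called by edgeR, where 0.341% of all genes tested were called (0.0773% higher and 0.264% lower in OVA), and none was called with limma-voom. DESeq2 gave an adjusted p for 5 of them, Itga4, Itga5, Itga6, Itgav and Itgb1, and called none of these. At an unadjusted p under 0.05 there were 3, namely Itga4 (−0.19, SE 0.059, adjusted p = 0.231), Itgav (−0.17, SE 0.058, adjusted p = 0.286) and Itgb3 (0.15, SE 0.068, adjusted p = 0.452). The lower values of Itga4 and Itgav in OVA and of Itgb3 in WT cells thus did not pass the test across all genes. The 95% interval of the difference was −0.098 to 0.061 for Itgb1, −0.091 to 0.18 for Itga5, −0.23 to 0.018 for Itga6, −0.48 to 0.067 for Itga1 and −0.11 to 0.42 for Itgb5. For the low genes it was wide, −0.57 to 1.42 for Itga2 and −0.0044 to 2.14 for Itga3. Itga3 was called in OVA and not in WT cells, but this difference itself had an adjusted p of 0.469.

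**Figure D2:**
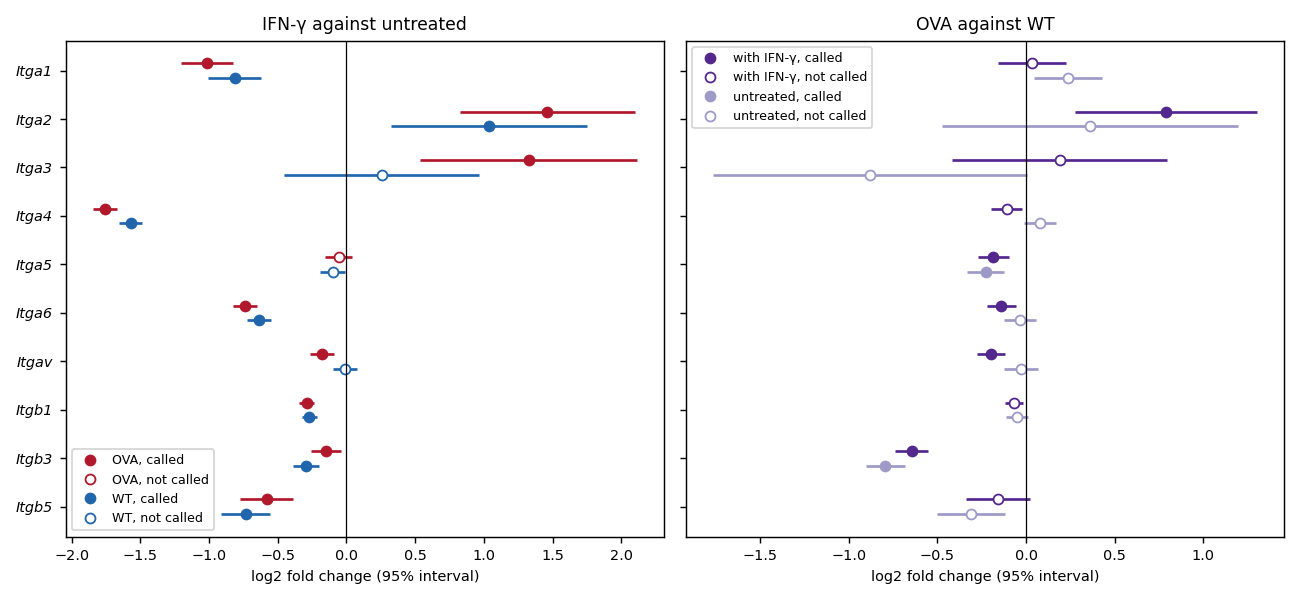
Log2 fold change (horizontal axis) with its 95% interval (line) of each integrin subunit gene, IFN-γ against untreated in OVA and WT cells (left) and OVA against WT with IFN-γ and untreated (right). Filled points passed an adjusted p of 0.05 in edgeR. In the left panel Itga4 stands at −1.76 and −1.57, and in the right panel Itgb3 is the member farthest below 0 among the filled points, at −0.65 and −0.79.

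Between the lines, Itgb3 had the lowest log2 fold change among the called subunit genes. It was lower in all 5 OVA libraries (36.0 to 42.3 CPM) than in all 5 WT libraries (56.3 to 70.4 CPM). The log2 fold change, OVA against WT, was −0.65 (SE 0.044, adjusted p = 3.64e-08) with IFN-γ and −0.79 (SE 0.051, adjusted p = 6.16e-08) without. Of all genes tested, 3.41% had a lower value with IFN-γ and 2.60% without. Both calls held under all 18 alternatives. From low to high, the order of Itgb3 levels was treated OVA, untreated OVA, treated WT and untreated WT, and no neighbouring groups overlapped. Lack of overlap between the lines was found for 49.7% of all genes tested in untreated and 31.1% in treated cells. The markers of platelets, in which beta 3 is abundant, summed to 0.931 to 1.69 CPM in OVA libraries and to 0.994 to 1.596 CPM in WT libraries, Itgb3 left out.

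Itga5 was lower in OVA cells too, by less. It had 61.1 to 66.8 CPM in treated OVA against 70.5 to 73.7 CPM in treated WT cells (−0.19, SE 0.041, adjusted p = 0.00554), and 65.1 and 67.7 CPM in untreated OVA against 77.0 and 78.6 CPM in untreated WT cells (−0.23, SE 0.049, adjusted p = 0.0102). In untreated cells the call did not hold when replicate 1 (adjusted p = 0.0986) or 2 (0.0564) of untreated WT or replicate 2 of untreated OVA (0.137) was left out. In untreated cells Itgb3 and Itga5 were the 2 genes called, both lower in OVA, where 2.55% of all genes tested were lower and 2.98% higher, 5.53% together. The remaining 8 were not called. Itgb5 was at −0.31 there (SE 0.090, adjusted p = 0.0540), at 28.9 and 27.3 CPM in untreated OVA against 34.7 and 35.1 CPM in untreated WT libraries. It was called when replicate 2 (adjusted p = 0.0152) or 3 (0.0188) of treated WT was left out, and with limma-voom (0.0498), no filter (0.00295), the stricter filter (0.0308) and only the groups compared (0.00512).

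With IFN-γ, 4 genes were lower and 1 was higher in OVA than in WT cells, where 7.99% of all genes tested were lower and 6.36% higher, 14.4% together. Beside Itgb3 and Itga5, these were Itgav (−0.20, SE 0.037, adjusted p = 0.00170), Itga6 (−0.14, SE 0.039, adjusted p = 0.0231) and, higher in OVA, Itga2 (0.79, SE 0.24, adjusted p = 0.0394). Itgav had 229 to 245 CPM in treated OVA and 256 to 281 CPM in treated WT cells, while the untreated lines overlapped (−0.028, 95% interval −0.12 to 0.067). The 5 called genes did not overlap between treated lines, nor did Itgb1, and 31.1% of all genes tested had no overlap in this comparison. Itga6 was no longer called when replicate 1 (adjusted p = 0.0920) or 2 (0.0594) of treated WT or replicate 1 of treated OVA (0.0933) was left out, or with DESeq2 (0.0658). For Itga2 it was lost with no filter (adjusted p = 0.102) and without any one of 7 libraries: WT IFN-γ replicate 2 (0.115) or 3 (0.105), OVA untreated replicate 1 (0.0517) or 2 (0.0524), and OVA IFN-γ replicate 1 (0.0710), 2 (0.130) or 3 (0.0660). Itga4 (−0.11, adjusted p = 0.0882), Itgb1 (−0.068, adjusted p = 0.0665) and Itgb5 (−0.16, adjusted p = 0.236) were not called. Itga4 was called without WT IFN-γ replicate 3 (adjusted p = 0.0383), Itgb5 without WT IFN-γ replicate 2 (0.0292) and Itgb1 with limma-voom (0.0443).

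To set levels of different genes side by side, CPM were divided by gene length, the union of exons in GENCODE M21, which may differ from the annotation the counts were made with. Per kilobase, Itgb1 took 91.9% ± 0.215 of the beta subunit RNA listed here in treated and 91.5% ± 0.0343 in untreated OVA cells, and 89.8% ± 0.346 in treated and 88.4% ± 0.0666 in untreated WT cells (SD, n = 3, 2, 3 and 2). Itgb3 took 4.37% ± 0.0787 and 3.94% ± 0.206 in treated and untreated OVA cells, against 6.37% ± 0.187 and 6.38% ± 0.00424 in treated and untreated WT cells. These shares, too, depended on the length used. Dividing by coding length instead gave Itgb3 6.32% and 5.71% in treated and untreated OVA cells. Its values in treated and untreated WT cells were then 9.12% and 9.16%. By exon union Itgb5 was ahead of Itgb3 in untreated OVA cells, and by coding length Itgb3 was ahead. The summed beta subunits exceeded the summed alpha subunits by exon union. In treated and untreated OVA cells the sums were 142 ± 0.207 and 174 ± 1.93 CPM per kb for beta, and 49.0 ± 1.71 and 71.7 ± 1.27 for alpha. In WT cells the sums were 152 ± 3.15 and 186 ± 0.723 CPM per kb for beta, treated and untreated, and 55.0 ± 2.12 and 73.6 ± 1.04 for alpha. Alpha subunits outside the 10 genes, Itga9 among them, are not in these sums. The size of the gap depends on the length used. In untreated OVA cells Itga4 had 20.5 CPM per kb by exon union and 92.4 by coding length, and Itgb1 had 159 and 271.

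Among alpha subunits, the share of Itga4 was lower and that of Itgav higher in treated cells. Itga4 made up 12.3% ± 0.327 of the listed alpha subunit RNA per kilobase in treated and 28.5% ± 0.264 in untreated OVA cells, and 11.9% ± 0.0852 in treated and 26.3% ± 0.0340 in untreated WT cells. Itgav made up 45.2% ± 0.237 in treated and 35.0% ± 0.117 in untreated OVA cells, and 46.1% ± 0.718 in treated and 34.7% ± 0.267 in untreated WT cells. Treated and untreated libraries did not overlap in either share. In its own CPM, as given above, Itgav did not rise in either line. Itga5 had 26.4% ± 0.258 in treated and 18.8% ± 0.194 in untreated OVA cells, and 26.7% ± 0.392 in treated and 21.4% ± 0.603 in untreated WT cells. By exon union, Itga1, Itga2 and Itga3 each took 0.0924% to 1.41% of a library's listed alpha subunit RNA. With coding length, the share of Itga1 was 1.73% in treated and 2.16% in untreated OVA cells and 1.51% in treated and 1.83% in untreated WT cells. The order of Itga4, Itga5 and Itga6 depended on the length used. With coding length, Itga4 took 18.7% in treated and 39.0% in untreated OVA cells and 18.005% and 36.9% in treated and untreated WT cells. Itga5 then took 13.8% in treated and 8.87% in untreated OVA cells and 14.05% in treated and 10.4% in untreated WT cells. Itga4 was thus ahead of Itga5 in all groups with coding length, whereas by exon union Itga5 was ahead of it in treated cells. Itgav led in treated cells by each of the 3 lengths tried, and with coding length Itga4 was ahead of it in untreated OVA cells.

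**Figure D3:**
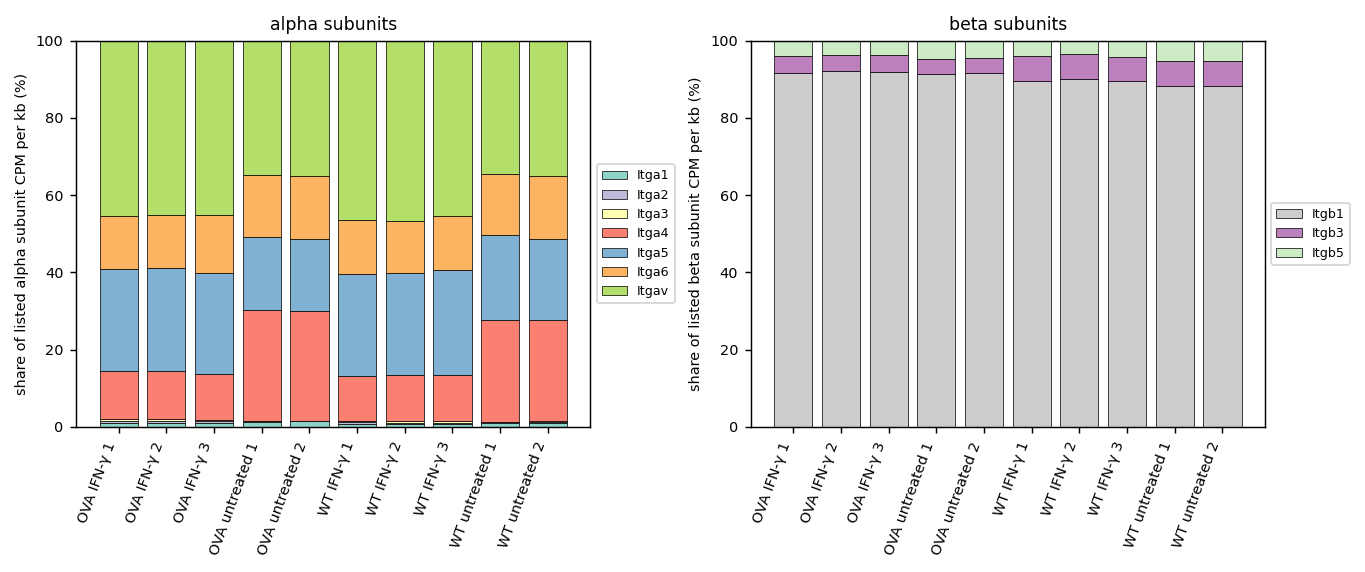
Share in percent (vertical axis) of each gene in the summed CPM per kilobase of exon union of the 7 alpha (left) and 3 beta (right) subunit genes, 1 bar per library, treated OVA, untreated OVA, treated WT and untreated WT cells from left to right. The Itga4 segment is 11.8% to 12.7% in treated and 26.3% to 28.7% in untreated libraries, and the Itgb3 segment is 3.80% to 4.46% in OVA and 6.15% to 6.48% in WT libraries.

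The other integrin subunit genes were mostly low. Of 16 listed, 9 were tested, and Itgb6, Itgax and Itgad, the last 2 of them leukocyte subunits, had no counts in any library. Itga9, the alpha 9 subunit that pairs with beta 1 and is close to alpha 4 in sequence, was the one with a level near those above, at 52.5 ± 2.39 CPM in treated and 78.3 ± 2.96 CPM in untreated OVA cells and 66.3 ± 1.6003 CPM in treated and 101 ± 3.91 CPM in untreated WT cells. It fell in both lines, by 0.58 (SE 0.048) in OVA and 0.61 (SE 0.045) in WT cells on the log2 scale. It was also lower in OVA than in WT cells with IFN-γ (−0.34, SE 0.044) and without (−0.37, SE 0.049). Between the lines, 1 of the 9 was lower and 1 higher in OVA with IFN-γ, and 1 was lower and 0 higher without. Over all genes tested, 7.99% were lower and 6.36% higher with IFN-γ, and 2.55% lower and 2.98% higher without. In the list, 2 rose and 2 fell in OVA cells (median −0.20), and 1 rose and 3 fell in WT cells (median −0.61). These 4 of 9 in each line are close to the shares called over all genes tested, 48.8% in OVA and 44.2% in WT cells. The remaining tested genes of this list averaged at most 3.16 CPM in any group.

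Genes of the link between integrins and actin fell more often than they rose. Of 24 tested activators and adaptors, 14 fell and 2 rose in OVA cells (median −0.25), and 11 fell and 3 rose in WT cells (median −0.14). Of all genes tested, 22.9% fell and 25.9% rose in OVA cells, and 19.7% fell and 24.5% rose in WT cells. Parvb, a parvin of the complex around integrin-linked kinase, fell by 0.79 (SE 0.036) in OVA and by 0.82 (SE 0.036) in WT cells, and the tensin gene Tns1 fell by 0.59 (SE 0.10) and 0.69 (SE 0.093). In the same complex, the kinase gene Ilk rose by 0.15 (SE 0.044) in OVA and 0.21 (SE 0.044) in WT cells, and Rsu1, another of its members, by 0.20 (SE 0.051) and 0.21 (SE 0.052). In OVA cells the rise of Ilk was not called without replicate 1 (adjusted p = 0.0585) or 2 (0.0675) of untreated OVA or replicate 3 of treated OVA (0.0543), nor that of Rsu1 without replicate 1 of untreated OVA (0.0986). Tln2, a talin gene, was lower in OVA than in WT cells with IFN-γ (−0.39, SE 0.039). Between the lines, 9 of the 24 were lower and 1 higher in OVA with IFN-γ, and 2 were lower and 1 higher without, where 7.99% of all genes tested were lower and 6.36% higher with IFN-γ, and 2.55% lower and 2.98% higher without.

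Of 12 inhibitors and lateral partners of integrins, 7 rose and 3 fell in OVA cells (median 0.24), and 5 rose and 3 fell in WT cells (median 0.095), where 25.9% of all genes tested rose and 22.9% fell in OVA cells and 24.5% rose and 19.7% fell in WT cells. Cd47, which binds alpha V beta 3 integrin and is known as a signal that restrains phagocytosis, rose by 1.97 (SE 0.041) in OVA and 1.87 (SE 0.040) in WT cells. Its level was 194 ± 5.94 CPM in treated and 49.7 ± 1.18 CPM in untreated OVA cells, and 210.4 ± 1.97 CPM in treated and 57.7 ± 2.08 CPM in untreated WT cells. Dab2, an endocytic adaptor for integrins, rose by 0.69 (SE 0.059) and 0.91 (SE 0.063). The tetraspanin gene Cd81 fell by 0.40 (SE 0.030) in OVA and 0.36 (SE 0.030) in WT cells, and the tetraspanin gene Cd9 fell by 0.37 (SE 0.067) in OVA and 0.25 (SE 0.063) in WT cells. Slc3a2, the heavy chain of CD98 that associates with beta subunits, was higher in OVA than in WT cells with IFN-γ (0.27, SE 0.028). Between the lines, 1 of the 12 was higher and 2 were lower in OVA with IFN-γ, and 1 was higher and 1 lower without. Over all genes tested, 6.36% were higher and 7.99% lower with IFN-γ, and 2.98% higher and 2.55% lower without.

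Matrix ligand genes moved in both directions. Of 18 tested, 2 rose and 10 fell in OVA cells (median −0.54), and 5 rose and 8 fell in WT cells (median −0.40). The shares over all genes tested were 25.9% up and 22.9% down in OVA and 24.5% up and 19.7% down in WT cells, also for the ligands on cell surfaces given further on. Thbs1, which encodes thrombospondin 1, rose by 3.56 (SE 0.069) in OVA and 4.43 (SE 0.072) in WT cells, and Fn1, which encodes fibronectin, by 0.98 (SE 0.050) and 0.89 (SE 0.048). Fn1 had 202 ± 2.92 CPM in treated and 102 ± 4.28 CPM in untreated OVA cells, and 249 ± 17.6 CPM in treated and 134 ± 2.48 CPM in untreated WT cells. Col4a1, a chain of basement membrane collagen, fell by 1.03 (SE 0.056) in OVA and 1.11 (SE 0.053) in WT cells. Edil3, a ligand of alpha V integrins, fell by 1.25 (SE 0.18) and 1.23 (SE 0.17). Between the lines, 1 of the 18 was higher and 9 were lower in OVA with IFN-γ, and 3 were higher and 3 lower without. Over all genes tested, 6.36% were higher and 7.99% lower with IFN-γ, and 2.98% higher and 2.55% lower without. Among the lower ones, Lama5, a laminin chain, was lower in OVA than in WT cells with IFN-γ (−0.36, SE 0.074) and without (−0.47, SE 0.075). For the difference of responses 2 of 18 were called, Ccn1 and Thbs1, both with the lower log2 fold change in OVA, where 0.341% of all genes tested were called. The list was chosen with earlier results of these data known, so its count cannot be read as an excess over that share. The Thbs1 call was lost without replicate 1 of untreated WT (adjusted p = 0.0672) or replicate 2 of untreated OVA (0.0508). Of 7 tested ligands on cell surfaces, 2 rose and 4 fell in OVA cells (median −0.15), and 3 rose and 3 fell in WT cells (median −0.11). Jam3, a junctional adhesion molecule, rose by 0.59 (SE 0.076) in OVA and 0.65 (SE 0.075) in WT cells. L1cam, a neural adhesion molecule that binds integrins, fell by 0.87 (SE 0.090) and 0.82 (SE 0.083), and Adam9, a disintegrin metalloprotease, fell by 0.60 (SE 0.029) and 0.45 (SE 0.030).

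**Figure D4:**
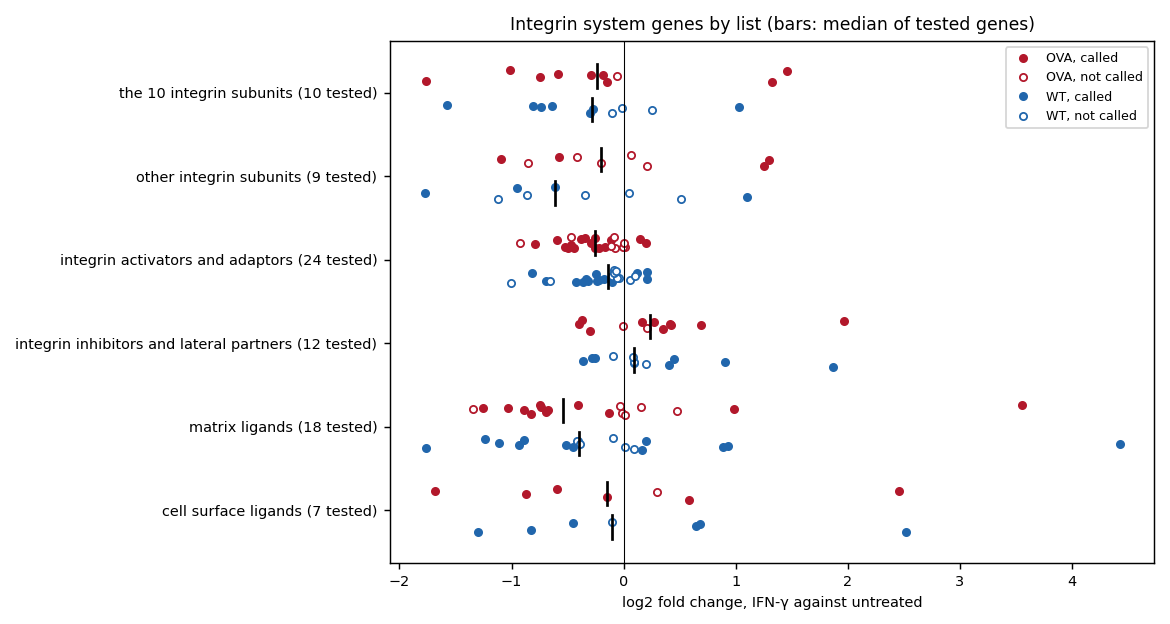
Log2 fold change with IFN-γ (horizontal axis) of the tested genes of each list, OVA above WT in each row, filled where the adjusted p was under 0.05 in edgeR, with the median of the tested genes as a bar. Median bars lie above 0 for the inhibitors and lateral partners (0.24 in OVA and 0.095 in WT cells) and below 0 in both lines for the other lists shown.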

How the data were processed

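Bulk RNA sequencing covered 10 libraries in 4 groups. The deposited table holds the authors' raw read counts per Ensembl gene. Per the submitters' processing notes, the tools were HISAT2 2.0.5 and featureCounts 1.6.0, with GRCm39 as build. Which annotation, which strand setting and what treatment of multiply mapped reads were used is not given in the sources used here. Genes whose exons overlap, on opposite strands or on the same strand, are therefore uncertain.

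From these counts, edgeR 4.0.16 (R 4.3.3) fitted TMM-scaled quasi-likelihood models after filterByExpr by group and gave two-sided F tests, with the 4 group means fitted to all 10 libraries and Benjamini-Hochberg adjustment over 15526 genes at 0.05. A gene is called where its adjusted p is under that value. SE and 95% intervals come from the same fit. There were 5 comparisons: treated against untreated OVA, treated against untreated WT, OVA minus WT for these responses, and OVA against WT under either condition. Alternatives were RLE size factors, DESeq2 1.42.0, limma-voom (limma 3.58.1), no filter, a stricter filter (at least 1 CPM in at least 5 libraries), a fit of only the groups compared, a replicate block, a threshold of 0.01 and each library left out. Coding length and the longest coding transcript, as other gene lengths, were added after seeing the data. The procedure was tested on simulated data in which few genes changed. Data with as many changes as were called here with IFN-γ were not simulated. Lengths and exon overlaps are from GENCODE M21 on GRCm38, another build than that of the counts, so no gene coordinates are given beyond the RefSeq windows, which name their build.

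All 10 members are named. Of each pathway list, at most 4 called genes per comparison with at least 5 CPM in the higher group could be named, by the highest and lowest log2 fold change, and the text gives a part of these. The members and lists were chosen with earlier results of these data known. Gene sets were not tested as sets.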

Additional observations from a re-analysis of the deposited data

Results flagged for a closer look

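Among the genes named above, a pair of matrix ligand genes was singled out because their responses to IFN-γ differed between the lines by the test of the difference itself. Ccn1, a matricellular ligand of alpha V and alpha 6 integrins, differed by −0.76 log2 units, OVA minus WT (SE 0.075, adjusted p = 7.69e-05 in edgeR). It had 44.3 and 70.6 CPM on average in treated and untreated OVA cells and 52.4 and 49.3 CPM in treated and untreated WT cells. For Thbs1 the value was −0.87 (SE 0.13, adjusted p = 0.00338). It averaged 94.5 and 8.03 CPM in treated and untreated OVA cells and 123 and 5.71 CPM in treated and untreated WT cells. Without replicate 1 of untreated WT (−0.71, adjusted p = 0.0672) or replicate 2 of untreated OVA (−0.85, adjusted p = 0.0508) Thbs1 was not called, while Ccn1 was called under the 16 alternatives that gave it an adjusted p, DESeq2 not among them. None of the 10 integrin subunit genes was called for this difference. With 2 or 3 libraries a group, single libraries were not tested as outliers.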

How the results depend on the processing

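Of 876 log2 fold changes of the subunit genes under the alternatives, 826 kept their direction and their side of the threshold. The 5 sign changes were of values near 0 that were not called: Itgav in WT cells with IFN-γ under the replicate block (0.023) and without WT untreated replicate 2 (0.012) or WT IFN-γ replicate 3 (0.019), Itga6 between untreated lines without WT untreated replicate 2 (0.0016), and Itga1 between treated lines without OVA IFN-γ replicate 2 (−0.043). With 1 library left out, these 3 results ran from −0.046 to 0.019, from −0.068 to 0.0016 and from −0.043 to 0.087. The cause was not tested.

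Over all genes, 53 were called for the difference of responses, 859 between untreated and 2229 between treated lines. DESeq2 called 103, 552 and 1454. An adjusted p under 0.01 left 21, 381 and 1099. For the difference of responses, no filter gave 284 and the replicate block 165. Leaving out 1 library gave 21 to 107, 350 to 1012 and 1431 to 2408. Of the subunit genes, DESeq2 called 3 between treated lines, where the main analysis called 5. An adjusted p under 0.01 left 1 between untreated and 3 between treated lines. Leaving out 1 library gave 1 to 3 and 3 to 5. For IFN-γ against untreated it gave 8 to 9 in OVA and 6 to 8 in WT. For the named pathway genes, whose alternatives were added after seeing the data, 939 of 1005 values kept direction and call and 66 lost the call.

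Replicate numbers are shared between groups, and the main fit did not take them as pairing. Deviations from the group means correlated at −0.097 to 0.21 over 13 pairs of same-numbered libraries. Over 24 pairs with other numbers they correlated at −0.28 to 0.21. In groups of 2 libraries the deviations mirror each other, so these values are not independent and cannot decide whether the numbers mark pairs. Under the replicate block, Itgb5 between untreated lines (adjusted p = 0.0280) and Itga4 (0.0258) and Itgb1 (0.0450) between treated lines were called as well. Itga2 and Itga3 rest on 7 to 37 counts a library, which limits what can be said of them. DESeq2 gave no adjusted p for Itga1, Itga2, Itga3, Itgb3 and Itgb5 in the difference of responses, nor for Itga2 and Itga3 between lines. The stricter filter left Itga3 untested, and a fit of only the groups compared gives no difference of responses.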
